A study of Mus musculus with 8 samples.

Results

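Chaperonins are barrel-shaped complexes that enclose a folding protein. The 10 genes described here are the 8 that encode the subunits of the cytosolic ring, called CCT or TRiC (Tcp1, Cct2, Cct3, Cct4, Cct5, Cct6a, Cct7 and Cct8), and the 2 of the mitochondrial chaperonin, Hspd1 (HSP60) and its lid Hspe1 (HSP10). Members were all probe sets, the groups of short probes that report 1 transcript, annotated to these symbols. These are 10 of the 18193 genes that the array names with a probe set of their own. They had 28 of its 45101 probe sets, 25 for CCT genes and 3 for the mitochondrial pair, and none of the 28 carried a further gene symbol.

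The RNA came from cultures of oligodendrocyte precursor cells, the dividing cells that give rise to myelin-forming oligodendrocytes. They were grown from cerebral hemispheres taken from ICR mice as embryos of 15 days, and no genetic change is given for any group. Both groups spent 5 days in medium with 10% serum and were then moved to serum-free basal medium for 48 hr, 1 group at 31.5 °C and the other at the normal 37 °C. Each group has 4 arrays of total RNA, numbered as replicates 1 to 4. Per the labels n was 3 mice in each group. Whether a replicate is a culture of its own is not stated there, so errors and p-values measure only the spread between these samples, which may be technical.

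Each CCT subunit is an ATPase, and 8 different ones sit side by side in each ring. Newly made actin and tubulin cannot fold without the complex, which receives them from the prefoldin co-chaperone. The mitochondrial chaperonin folds proteins after their import into the matrix, with the lid closing the chamber. Hspd1 and Hspe1 are neighbours that are read in opposite directions from a shared promoter, and both are known as genes of the heat shock response, in which heat shock factors bind inverted repeats of a short unit.

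The shared promoter is shown because it holds a run of inverted repeats that was not found in the windows searched for the CCT genes. Cct4 had no window. The values of the pair are given further on. In RefSeq (GRCm38.p6) Hspe1 starts at base 55088148 of chromosome 1 on the plus strand, and Hspd1 has starts on the minus strand at 55087932, 216 bases away with the genes facing outwards, and at 55088243, 95 bases inside Hspe1. The 250 bases before the Hspe1 start (chr1:55087898-55088147, plus strand) read as follows, with matches to TTCNNGAA or GAANNTTC in capitals.
Hspe1: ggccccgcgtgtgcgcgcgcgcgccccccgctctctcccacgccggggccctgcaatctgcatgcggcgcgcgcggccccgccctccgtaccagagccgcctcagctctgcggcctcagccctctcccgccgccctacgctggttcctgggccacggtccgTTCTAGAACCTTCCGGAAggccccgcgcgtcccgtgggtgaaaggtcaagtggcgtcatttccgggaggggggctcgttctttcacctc

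The capitals form 1 stretch of 18 bases (chr1:55088059-55088076), from 89 to 72 bases before the Hspe1 start. It holds 2 matches to TTCNNGAA and 1 to GAANNTTC, which overlap. Each motif is its own reverse complement, so 1 search covers both strands, and the same stretch lies in the window of the facing Hspd1 start. RefSeq promoters of 9 of the 10 genes (all but Cct4) were matched by symbol, in 12 windows of 250 bases. A match to either motif was in 4 of the 12 windows, of which 2 hold this same stretch, against 12.8% of 32851 windows of all genes. The others were 1 match at a start of Cct2 (chr10:117063376-117063625) and 1 at a start of Cct5 (chr15:31601847-31602096). At least 2 matches to TTCNNGAA were found in 0.344% of all windows, and among the members only at the Hspe1 start and the facing Hspd1 start. The window of the other Hspd1 start held no match to either motif. A match describes the letters and does not show that a factor binds.

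Array brightness varied. The mean signal after 2% trimming ran from 190.0 to 239 at 31.5 °C and from 132 to 249 at 37 °C, where replicate 4 was dimmest, and the factors that brought all 8 arrays to 1 level were 0.848 to 1.60. The ratio of 3′ to 5′ actin control probes was 1.17 to 1.27 at 31.5 °C and 1.20 to 1.30 at 37 °C (two-sided exact permutation test, p = 0.429, 0.814 adjusted over 3 measures). All 6 markers of precursor cells were above the filter on low signals. Of these 1 was higher at 31.5 °C (Pdgfra, log2 change 0.45), 1 was lower (Gpr17, -0.84) and 4 did not pass, with 4 of 6 below 0 and a median of -0.11. Transcripts of other cell types were present too and moved with temperature. Of the markers tested, 4 of 4 for oligodendrocytes, 4 of 6 for astrocytes, 3 of 6 for microglia, 2 of 4 for fibroblasts and 1 of 6 for neurons were lower at 31.5 °C, and of 5 genes of dividing cells 0 passed in limma (1 was lower at an unadjusted p under 0.05). The summed signal of the oligodendrocyte markers was 4523 to 6733 at 31.5 °C and 9960 to 12806 at 37 °C, without overlap. For astrocyte markers it was 7185 to 12824 and 9732 to 17754, and for microglial markers 2268 to 4809 and 2872 to 7185, with overlap. In such bulk RNA fewer cells of a type and less RNA per cell cannot be told apart, and the part of these cells in the chaperonin values was not tested. Of the 4 endothelial markers Cdh5, Pecam1 and Cldn5 were below the filter, and the 1 tested, Kdr, was lower at -0.33 (limma, adjusted p = 0.0484; 0.569 without the replicate block).

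The chaperonin genes changed little between 31.5 °C and 37 °C. Of the 28 probe sets 25 passed the filter on low signals, and of these 1 was higher at 31.5 °C, 2 were lower and 22 did not pass the test (limma with the replicate number as a block, Benjamini-Hochberg adjusted p under 0.05). Over all 22514 probe sets tested 26.4% passed, 12.4% higher and 13.9% lower. Without the block 0 members were higher and 2 lower, where 6.52% and 6.83% of all probe sets tested were. The median log2 change (31.5 °C minus 37 °C throughout) was 0.09 for the members and -0.0049 for all probe sets tested. The median size of the change, whatever its sign, was 0.115 for the members and 0.189 for all. For 22 of the 25 it was under 0.3, as for 68.7% of all probe sets tested. These shares are not matched for signal: 20 of the 25 members had a mean over 1000, while the filter was at 38.3. The 3 probe sets below the filter were 2 of Cct3 and 1 of Cct8, with every array at or under 34.0, and they are given by their values only.

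**Figure D1:**
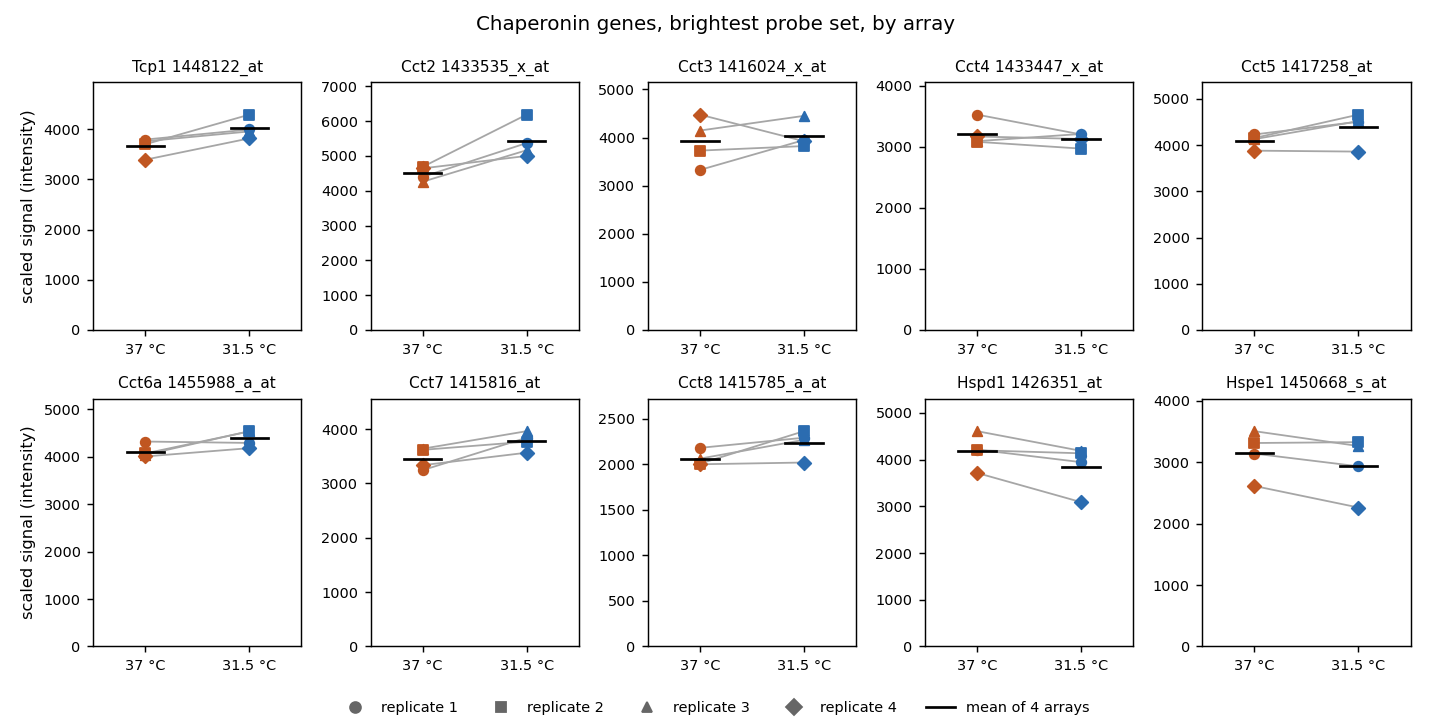
Scaled signal (vertical axes, linear intensity from 0) of the brightest probe set of each of the 10 chaperonin genes at 37 °C (orange) and 31.5 °C (blue); symbols mark replicates 1 to 4, grey lines join the 2 arrays of a replicate and black bars are means of 4 arrays. Cct2 and Tcp1 show no overlap between temperatures and are higher at 31.5 °C, as were 1358 of all 11527 genes by brightest probe set. Replicate 4 is the lowest of both groups for Hspd1 and Hspe1. Signals of different genes come from different probes and are not comparable.

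Cct2, which encodes the beta subunit, held the 1 probe set that rose. Probe set 1433535_x_at read 5370.2, 6188, 5164 and 5000.2 in replicates 1 to 4 at 31.5 °C and 4399, 4686, 4259 and 4644 at 37 °C. All 4 cold arrays lay above all 4 warm ones, as for 10.9% of all probe sets tested in that direction. The mean rose from 4497 ± 203 to 5431 ± 527 (SD, n = 4), a log2 change of 0.27 ± 0.0762 (SE; limma, adjusted p = 0.0481), or 1.20-fold. The call was at the edge of the threshold, and the ending _x_at marks a probe set whose probes may also match other transcripts. The adjusted p (limma) was 0.0906 without the replicate block, 0.0917 with no filter and 0.0585 to 0.136 with 1 replicate left out. Under the other alternatives it stayed under 0.05, from 0.0074 with an intensity trend to 0.0473 without a floor.

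The other probe sets of Cct2 did not pass. Probe set 1416037_a_at read 4676, 4999.7, 4727 and 4041 at 31.5 °C and 3952, 4024, 4068 and 3877 at 37 °C, higher in 4 of 4 pairs. The groups overlapped only in that replicate 4 at 31.5 °C lay below replicate 3 at 37 °C. Its log2 change was 0.21 (95% interval 0.03 to 0.39; limma, adjusted p = 0.085, between 0.0207 and 0.212 over the alternatives). Probe set 1433534_a_at had 0.01 (-0.22 to 0.25), with pairs on both sides of 0.

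Tcp1, the alpha subunit after which TRiC is named, has 1 probe set. It read 3996, 4293, 3958 and 3819 at 31.5 °C and 3795, 3702, 3761 and 3394 at 37 °C. The groups did not overlap, as for 10.9% of all probe sets tested in that direction. The difference was small, with means of 4017 ± 199 and 3663 ± 184 (SD, n = 4). The log2 change of 0.13 (95% interval -0.03 to 0.30) did not pass (limma, adjusted p = 0.194).

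Cct5, Cct6a, Cct7 and Cct8 encode the epsilon, zeta, eta and theta subunits, and the brightest probe set of each was above 0 and did not pass. Cct5 read 4506, 4660.3, 4519.5 and 3860.0 at 31.5 °C and 4231, 4154, 4130.2 and 3880.2 at 37 °C. Replicates 1 to 3 at 31.5 °C were above every warm array, while replicate 4 at 31.5 °C was the lowest of all 8. Its log2 change was 0.09 (95% interval -0.07 to 0.26), that of Cct6a (1455988_a_at) 0.09 (-0.08 to 0.26), that of Cct7 (1415816_at) 0.13 (-0.04 to 0.30) and that of Cct8 (1415785_a_at) 0.11 (-0.06 to 0.29). The second probe set of Cct7 (1415817_s_at) had 0.04.

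The second probe set of Cct6a (1423517_at) had a larger value. It read 4166, 4236, 4135 and 3428 at 31.5 °C and 3606, 3480.3, 3561 and 3271 at 37 °C. It was higher in 4 of 4 pairs, but replicate 4 at 31.5 °C was below 3 of the warm arrays. The log2 change was 0.19 (95% interval 0.02 to 0.37; limma, adjusted p = 0.0926, between 0.024 and 0.227 over the alternatives).

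Cct3, the gamma subunit, has 7 probe sets, of which 5 were tested and 0 passed in limma (1 was higher at an unadjusted p under 0.05). The brightest, 1416024_x_at, read 3948, 3823, 4450.5 and 3924 at 31.5 °C and 3326, 3728, 4145 and 4476 at 37 °C, with full overlap. Its log2 change was 0.05 (95% interval -0.17 to 0.27). The other 4 tested lay between 0.06 and 0.32. Among them 1449645_s_at was higher in 4 of 4 pairs at 0.26 (0.04 to 0.48; limma, adjusted p = 0.0769, between 0.0164 and 0.219 over the alternatives). The largest value, 0.32 for the dim 1426067_x_at, had pairs from -0.16 to 0.88.

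Cct4, the delta subunit, was the gene whose 7 probe sets disagreed. The brightest, 1433447_x_at, read 3204, 2972, 3212 and 3129.9 at 31.5 °C and 3529, 3083, 3094 and 3171 at 37 °C. These groups overlapped, and the log2 change was -0.04 (95% interval -0.21 to 0.13; limma, adjusted p = 0.703), a value above 0 with median scaling. The 3 next in signal had 0.09, 0.06 and 0.10 and did not pass either.

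A pair of dim Cct4 probe sets fell. Probe set 1430034_at read 53.9, 98.0, 91.1 and 121 at 31.5 °C and 132, 193, 157 and 200.4 at 37 °C. Every cold array was below every warm one, as for 10.2% of all probe sets tested in that direction. Its mean fell from 171 ± 32.0 to 91.1 ± 27.9 (SD, n = 4), a log2 change of -0.94 ± 0.110 (SE; limma, adjusted p = 0.00443, at most 0.0405 over the alternatives).

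Probe set 1415868_at read 21.9, 40.1, 47.4 and 46.2 at 31.5 °C and 75.1, 95.1, 81.7 and 90.4 at 37 °C, again without overlap. It changed by -1.19 ± 0.165 (SE) on the log2 scale (limma, adjusted p = 0.00661, or 0.0625 with no filter). The filter was a mean signal of 38.3 over the 8 arrays, and all 8 values lie above the 9.78 to which lower signals were raised. Within the 4 pairs 1430034_at ranged from -1.29 to -0.73 and 1415868_at from -1.78 to -0.79, while the brightest Cct4 probe set ranged from -0.14 to 0.05, so these ranges do not meet. The last probe set, 1456572_x_at, had pairs of both signs (-1.05 to 0.74). Which Cct4 transcripts the dim probe sets read was not analysed here.

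**Figure D2:**
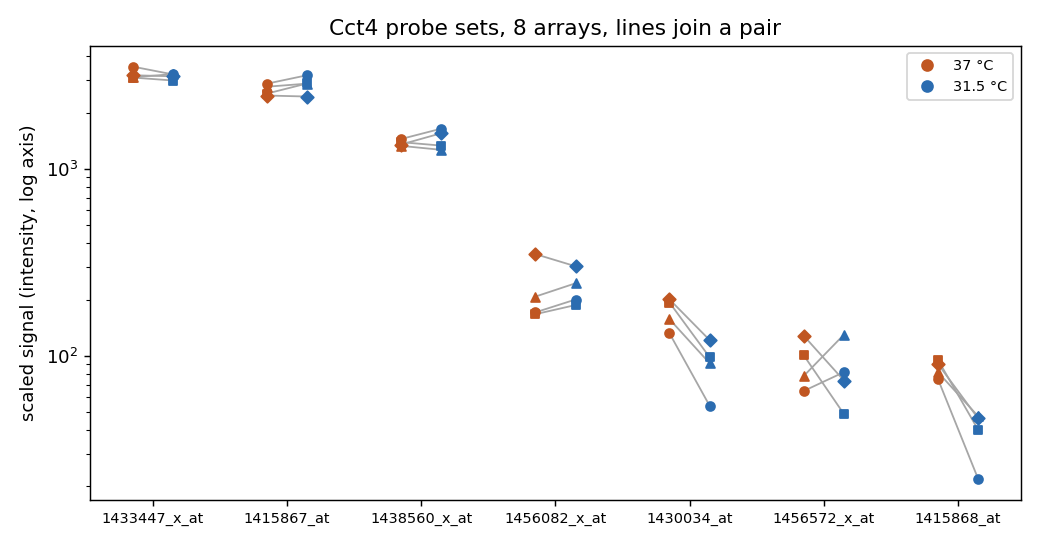
Scaled signal (vertical log axis, intensity) of the 7 Cct4 probe sets in order of brightness at 31.5 °C; orange points are 37 °C, blue points 31.5 °C, and grey lines join the 2 arrays of a replicate. The lines are near level for the 3 brightest probe sets and all 4 lines descend for 1430034_at and 1415868_at.

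The 3 probe sets of the mitochondrial pair lay below 0 and 0 passed in limma (1 was lower at an unadjusted p under 0.05). Hspd1, the chamber subunit, read 3947, 4137, 4189 and 3090.2 at 31.5 °C and 4216, 4202, 4610.4 and 3715 at 37 °C. The cold array was the lower one in 4 of 4 pairs, by 0.10, 0.02, 0.14 and 0.27 on the log2 scale, but the groups overlapped. The means were 3841 ± 511 and 4186 ± 366 (SD, n = 4), and the log2 change of -0.13 (95% interval -0.31 to 0.05) did not pass (limma, adjusted p = 0.228).

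Hspe1, the lid subunit, has 2 probe sets. The brighter, 1450668_s_at, read 2934, 3328, 3265 and 2263 at 31.5 °C and 3141, 3314, 3507 and 2614 at 37 °C, with a log2 change of -0.10 (95% interval -0.27 to 0.07; limma, adjusted p = 0.326). The dimmer, 1422579_at, read 912, 968, 1072 and 738 at 31.5 °C and 916, 1289, 1275 and 913 at 37 °C. It was lower in 4 of 4 pairs at -0.24 (-0.46 to -0.03) and did not pass (limma, adjusted p = 0.0886, between 0.0238 and 0.366 over the alternatives).

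The signals of Hspd1 and Hspe1 varied among replicates. For all 3 of their probe sets replicate 4 was the lowest array at both temperatures. At 31.5 °C the highest array was 1.36 times the lowest for Hspd1 and 1.47 times for Hspe1 (1450668_s_at). At 37 °C these ratios were 1.24 and 1.34. The fitted change with temperature was 1.09-fold and 1.07-fold, but a ratio of extremes and a fitted change are unlike measures. Replicate 4 at 37 °C was also the array with the largest scaling factor, whose part was not tested. Of all 25 member probe sets tested, 15 were lowest in replicate 4 at 31.5 °C and 11 at 37 °C. The same share over all probe sets tested was not worked out, so these counts describe the members only.

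By direction, 18 of the 22 tested CCT probe sets were above 0 and 3 of 3 of the mitochondrial pair below 0. Over the alternatives 17 to 19 of the 22 CCT probe sets stayed above 0 wherever all were tested, and every tested probe set of Hspd1 and Hspe1 stayed below 0. Over all probe sets tested 11090 of 22514 were above 0. For the 8 CCT genes by brightest probe set the median change was 0.08, 0.16, 0.13 and 0.04 in pairs 1 to 4. Median scaling, which raised the median of all probe sets by 0.09, raised that of the members from 0.09 to 0.18. Among all members, 7 were higher and 4 lower in 4 of 4 pairs, where 23.7% and 24.5% of all probe sets tested were.

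In the main fit, changes larger than about 1.40-fold lay outside the intervals of the bright members. The bounds hold for that fit only, as intervals under the alternatives were not worked out. Without the replicate block the SE of Hspe1 1422579_at was 0.164, against 0.0876 with it. Cct3 1449645_s_at was at 0.26 in the main fit and at 0.35 with median scaling. Among the 20 members with a mean signal over 1000, the 95% intervals reached no lower than -0.46 and no higher than 0.48 on the log2 scale, or 1.37-fold down and 1.40-fold up. The median SE was 0.0726 for the members and 0.0898 for all probe sets tested. Of simulated log2 changes of 0.5 with 4 pairs 32.9% were recovered over probe sets of all signals tested. The share for the bright members alone was not worked out.

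**Figure D3:**
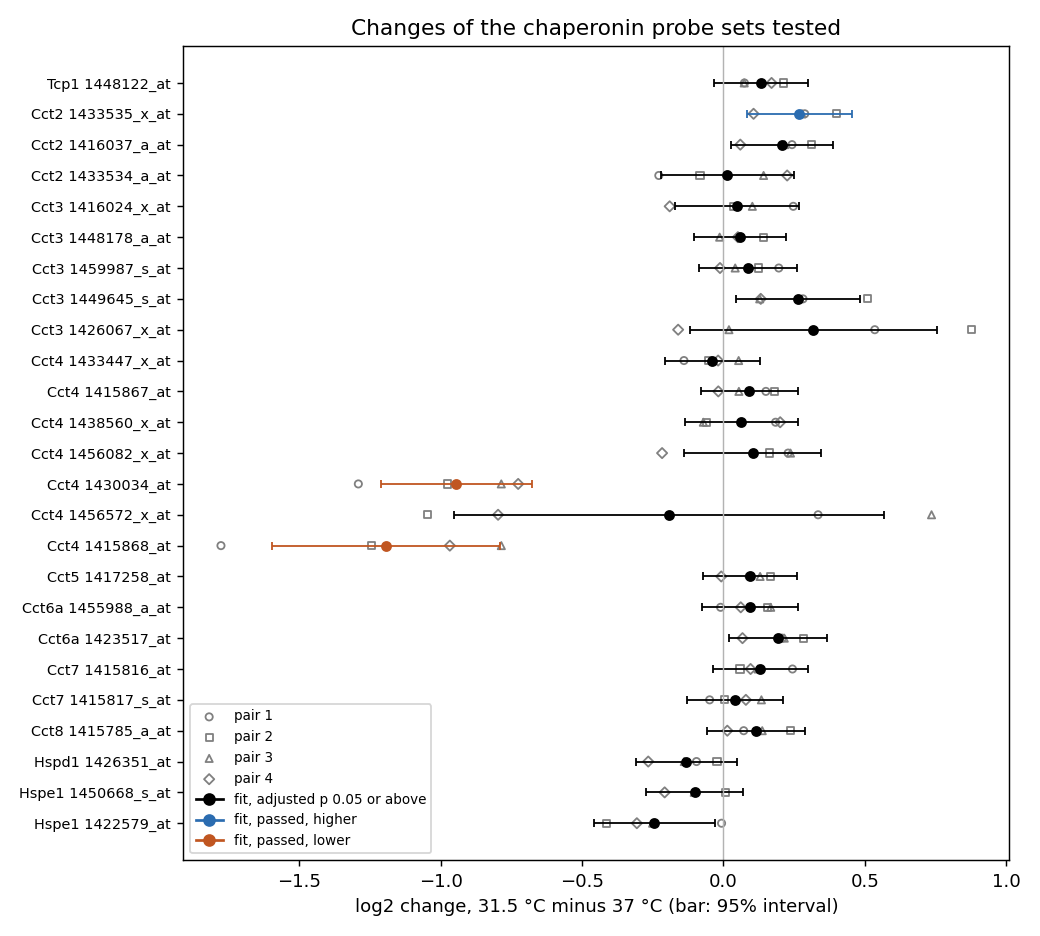
Log2 change (horizontal axis, 31.5 °C minus 37 °C) of the 25 chaperonin probe sets tested; filled points are the fitted change with its 95% interval and open symbols the 4 pairs. Blue passed as higher (Cct2 1433535_x_at), orange passed as lower (Cct4 1430034_at and 1415868_at), and the 22 in black did not pass.

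The genes that work with the chaperonins were read by the brightest probe set of each gene, for which the share that passed over all 11527 genes was 12.9% higher and 14.0% lower. Of the 6 prefoldin subunits, which hand unfolded actin and tubulin to CCT, 0 passed in limma (1 was higher at an unadjusted p under 0.05), at a median of 0.05. Among the CCT and tubulin cofactors 4 of 10 rose and 0 fell, with a median of 0.12.

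Tbce and Tbcd, tubulin-folding cofactors that act on tubulin after CCT has released it, rose most in that group. Tbce (1428282_at) read 465, 467, 446 and 505 at 31.5 °C and 282, 267, 283 and 274 at 37 °C, without overlap. Its log2 change was 0.77 ± 0.0719 (SE; limma, adjusted p = 0.00273), or 0.73 to 0.85 over the alternatives. Tbcd (1452194_at) rose from 570.2 ± 27.3 to 829.8 ± 34.9 (SD, n = 4), a log2 change of 0.54 (limma, adjusted p = 0.00568). Nop53, a ribosome biogenesis gene that this list holds, rose by 0.38 (limma, adjusted p = 0.0135; 0.0505 to 0.0527 without replicate 1, 2 or 3). Tbcb, the fourth, is named after its value was seen; it rose by 0.23 (limma, adjusted p = 0.0485; 0.148 without the replicate block).

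Among 18 genes of CCT clients, such as actins, tubulins, G protein beta subunits and Cdc20, 1 rose and 0 fell, at a median of 0.02. The 1 was the tubulin gene Tubb6 at 0.39 (limma, adjusted p = 0.0281; 0.169 without the replicate block). The mean of its probe sets was 0.12 and did not pass (limma, adjusted p = 0.238). Of 3 tested chaperonin-like genes, Bbs10, which helps to assemble a ciliary complex, rose by 0.52 from a low signal (limma, adjusted p = 0.0235; 0.0688 without the replicate block). Its probe sets averaged 0.18, which did not pass (limma, adjusted p = 0.106).

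In the mitochondrial folding and protease list 1 of 16 rose and 1 fell, at a median of 0.03. Clpx, which unfolds substrates for the matrix protease Clpp, rose by 0.40 (limma, adjusted p = 0.0443; 0.204 without the replicate block). Trap1, the HSP90 of mitochondria, changed by -0.30 (limma, adjusted p = 0.027; 0.103 without the replicate block). Hspa9, the mitochondrial HSP70 that passes proteins on to HSP60, had 0.21 (adjusted p = 0.0904), Clpp 0.17 (adjusted p = 0.17) and the protease gene Lonp1 0.06 (adjusted p = 0.555), and none of these 3 passed in limma. Of 15 import genes Timm23, the channel of the inner membrane, rose by 0.30 (limma, adjusted p = 0.026; 0.0601 to 0.0886 with 1 replicate left out) and 14 did not pass. Of the 3 stress factor genes Atf4, Atf5 and Ddit3, 0 passed in limma, and 0 were under 0.05 unadjusted.

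Cytosolic heat shock chaperones, in a list that also holds heat shock factors, moved both ways, 4 of 13 lower and 2 higher at a median of -0.16. Hsph1, a nucleotide exchange factor of HSP70, read 618, 689, 632 and 627 at 31.5 °C and 1493, 1468, 1492 and 1464 at 37 °C. It fell by 1.21 on the log2 scale (95% interval -1.38 to -1.04; limma, adjusted p = 0.00153), an interval that does not meet that of Hspd1 (-0.31 to 0.05) or those of the Hspe1 probe sets; the difference between the genes was not tested. Chordc1, an HSP90 partner, changed by -0.68 (limma, adjusted p = 0.0114, at most 0.0741 over the alternatives). Hspa4, a relative of Hsph1, rose by 0.38 (limma, adjusted p = 0.0201), yet the mean of its probe sets was -0.92. Hspa8, the constitutive HSP70, was at -0.16 and did not pass (limma, adjusted p = 0.233), though the mean of its probe sets did at -0.40. Of the 16 genes listed 13 were tested, and no value for Hsf1 is given here.

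**Figure D4:**
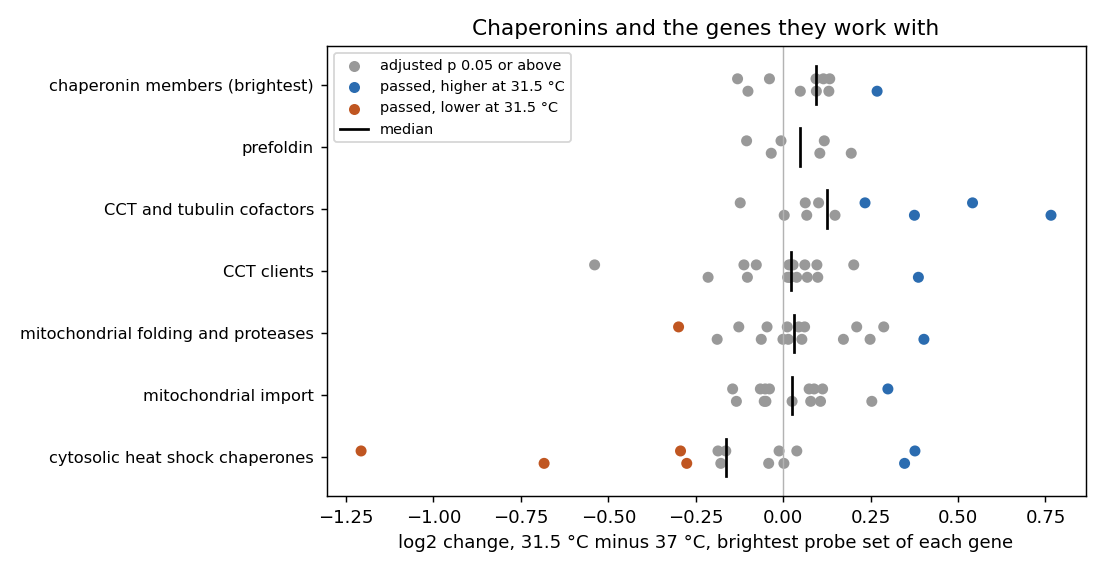
Log2 change (horizontal axis, 31.5 °C minus 37 °C) of the brightest probe set of each gene, by group; blue passed as higher, orange passed as lower, grey did not pass, and black bars are medians of the groups. The chaperonin members lie between -0.13 and 0.27, Tbce and Tbcd lie to their right, and Hsph1 to the left at -1.21.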

How the data were processed

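RNA of 8 samples was read on Affymetrix mouse arrays. The deposited values are linear probe set intensity made with MAS5, per the submitters' processing notes; version, scaling target and detection calls are not given in the sources used here. Arrays were scaled to a common 2% trimmed mean, values under the 25th percentile (9.78) were raised to it, and log2 was taken. Of 45037 probe sets that are not controls, the 22514 at or above the median mean signal (38.3) were tested with limma 3.58.1 in R 4.3.3 (temperature, with the replicate number as a block; Benjamini-Hochberg). The block follows the rule that pairs the arrays. Deviations from the group means correlated at 0.385 to 0.578 between arrays of 1 number and at most 0.0034 otherwise, so the numbers pair the arrays. Probe sets carried 1 symbol (34945), several (932, not used) or none (9160). The rule for named genes was all members, up to 3 genes per related list of smallest p that passed, and Hspa9, Lonp1, Clpp, Hsf1, Hspa8 and Hsph1. Hsf1 has no value here. Of the markers, up to 2 per list of smallest adjusted p could be named. Beyond these rules the text names Tbcb, Atf4, Atf5, Ddit3, Cdh5, Pecam1 and Cldn5, and Cdc20 as an example. Members and lists were chosen with earlier results of these data known. Simulated data (5 simulations, 200 changed probe sets each, 22514 tested) gave back 32.9% of log2 changes of 0.5, 77.6% of changes of 1 and 94.2% of changes of 2, with 3.46% of calls false. In the data 5935 passed, far more than 200, so the Benjamini-Hochberg cut was stricter in the simulations. These shares do not give the part of changes found among the members. Alternatives were the fit without the block, scaling by quantiles or by the median, a floor at the 50th percentile or log2 of the value plus 1 without any floor, a filter at the 70th percentile or none, an intensity trend, array weights, 1 probe set per gene, no _x_at or _s_at probe sets, the mean of probe sets, and leaving out each replicate. Promoters came from RefSeq.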

Additional observations from a re-analysis of the deposited data

Results flagged for a closer look

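Within the chaperonin members 1 array stood far from the rest of its group. For Cct6a probe set 1423517_at the replicate 4 array at 31.5 °C was at 3428 and the next lowest at 4135, a gap that on the log2 scale takes up 0.885 of the range of the group. Of 51 groups of 4 arrays examined 1 was so marked, and chance marks about 1 in 20.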

How the results depend on the processing

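Of the 25 member probe sets tested, 15 kept their sign and their side of the threshold under each of the 15 alternatives in which they could be tested. Member probe sets that passed numbered 3 of 25. They were 6 of 25 with median scaling, 7 of 25 with an intensity trend and 2 of 25 without any 1 replicate. With other sets tested they were 1 of 28 with no filter, 5 of 21 with the filter at the 70th percentile and 1 of 10 with 1 probe set per gene. With no filter 3.57% of the members and 6.64% of all passed. With 1 probe set per gene these shares were 10% and 30.7%, and with 1 replicate left out 8% and 14% to 15.9%. With median scaling, the 70th percentile filter and the intensity trend these were 24%, 23.8% and 28% of the members tested, where 28%, 38.1% and 32.8% of all probe sets tested passed. Higher were 4 in each, at 16%, 19% and 16%, where 18.9%, 19.7% and 15.9% of all probe sets tested were. Lower were 2, 1 and 3, at 8%, 4.76% and 12%, where 9.01%, 18.4% and 16.9% were. In the main fit 1 was higher and 2 lower. At the 70th percentile the 2 Cct4 probe sets that fell were not tested, and the 1 lower was Hspe1 1422579_at. Without the replicate block 2 passed, both of Cct4. Signs turned, at values that did not pass, for Cct2 1433534_a_at (-0.056 to 0.095 with 1 replicate left out, below 0 without replicate 3 or 4), Cct3 1416024_x_at (-0.017 to 0.13, below 0 without replicate 1) and Cct4 1433447_x_at (0.049 with median scaling) and 1456572_x_at (-0.50 to 0.091, above 0 without replicate 2 or 4). Over all probe sets tested 5935 passed, 3006 without the replicate block, 2990 with no filter, 3535 of 11527 with 1 probe set per gene, and 3160 to 3582 with 1 replicate left out. With median scaling 67.8% of those that passed were higher against 47.1% before. Of the 84 related genes 15 passed, 8 without the replicate block, 25 with an intensity trend and 4 to 6 with 1 replicate left out. These were 17.9%, 9.52%, 29.8% and 4.76% to 7.14%. Of all probe sets tested 26.4%, 13.4%, 32.8% and 14% to 15.9% passed in the same fits. Hspa4 turned to -0.92 when its probe sets were averaged; the cause was not tested. A replicate left out means both of its arrays, since an unpaired array adds nothing to a blocked fit. With 4 pairs, small changes and dim probe sets set the limit of what could be seen.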
